A study of Mus musculus with 20 samples.

Results

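Expression of 10 genes of interleukin-1 (IL-1) and interleukin-6 (IL-6) family signalling was examined by RNA-seq in the mouse temporomandibular joint (TMJ), where the jaw meets the skull. The genes were chosen by name and are 10 of the 54532 genes in the count table: the ligands *Il1b*, *Il6* and *Lif*, the antagonist *Il1rn*, the receptor chains *Il1r1*, *Il1rap*, *Il6ra*, *Il6st* and *Osmr*, and the feedback inhibitor *Socs3*. All animals were Acan-Cre;Loxl2 fl/fl, that is, both alleles of *Loxl2*, the gene of a collagen crosslinking enzyme, carried loxP sites on either side of the deleted part, and CreERT2, a recombinase switched on by tamoxifen, was expressed from the aggrecan gene *Acan*. Animals of 6 months received vehicle (Control, n = 8) or tamoxifen at 75 mg/kg in corn oil (Knockout, n = 12), daily at first and then monthly, and males and females of both groups were killed after 4 months. The tissue sequenced was the condyle of the joint and some of the bone under its cartilage.

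Several features limit the groups as a model. Only the Knockout animals were given tamoxifen, so drug and deletion cannot be told apart. The recombinase acts in aggrecan-expressing cells alone, whereas the RNA came from cartilage, bone and attached tissue together. *Loxl2* was 64.5 CPM (counts per 1000000 counts of the scaled library) ± 30.9 (SD, n = 8) in Control against 101 CPM ± 26.9 (SD, n = 12) in Knockout (log2 fold change 0.64, SE 0.28, edgeR adjusted p = 0.101). Without Knockout replicate 12 it was called higher (0.74, edgeR adjusted p = 0.0313). The count covers the whole gene and the whole tissue and is not limited to the deleted part or to the cells with active recombinase. As a transcript in these libraries *Loxl2* was therefore not lower, despite the label. This count cannot show whether the part was deleted in the cells with active recombinase. By immunohistochemistry, the study reports less LOXL2 in the knockout mice. Every direction below is that of the libraries labelled Knockout.

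IL-1β binds the receptor chain encoded by *Il1r1*, which then recruits the accessory chain encoded by *Il1rap* and signals through MyD88 to NF-κB. The antagonist encoded by *Il1rn* occupies the same receptor without signalling. IL-6, leukaemia inhibitory factor (LIF) and oncostatin M signal through gp130, the product of *Il6st*, paired with a ligand-specific chain, and activate STAT3, whose target SOCS3 shuts the receptor down. In joints, IL-1β and the IL-6 family are known as inducers of matrix-degrading enzymes in chondrocytes and as regulators of osteoblasts and osteoclasts.

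*Socs3*, *Lif* and *Osmr* were higher in Knockout, whereas the other 5 members that could be tested did not pass the test and *Il1b* and *Il6* were near zero. The test was edgeR's quasi-likelihood test across 15984 genes with an adjusted p under 0.05, in which 23% of all genes were called, 12% higher and 11% lower. Among the members, 3 of the 8 tested were called, all 3 higher, and 2 of the 10 were too low to enter the test. The median log2 fold change was 0.44 over the 8 tested members and -0.02 over all genes. *Il1rn* passed the filter on low counts only narrowly and *Il1b* and *Il6* did not, so neither this count nor this median is evidence about the members as a whole. In bulk tissue, fewer cells of a type and less RNA per cell cannot be told apart, and the same holds for more cells and more RNA.

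Promoter stretches of 3 genes are shown here. *Socs3* and *Lif* had the largest log2 fold changes among the called members, and *Il6* is a ligand near zero whose window held motif matches. The stretches are taken from RefSeq windows of 250 bases before to 50 bases after the gene start (GRCm38.p6) and leave out every exon annotated in GENCODE M21. They are written 5′ to 3′ on the strand of the gene, and capitals mark motif matches.
Socs3: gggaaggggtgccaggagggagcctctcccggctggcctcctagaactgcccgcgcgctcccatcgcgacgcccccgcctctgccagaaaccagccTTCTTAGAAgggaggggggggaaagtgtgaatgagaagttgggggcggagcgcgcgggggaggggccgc
Lif: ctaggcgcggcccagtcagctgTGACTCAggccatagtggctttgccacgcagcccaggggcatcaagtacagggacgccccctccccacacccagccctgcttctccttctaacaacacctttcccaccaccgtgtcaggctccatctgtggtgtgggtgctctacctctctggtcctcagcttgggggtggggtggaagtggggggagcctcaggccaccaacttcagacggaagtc
Il6: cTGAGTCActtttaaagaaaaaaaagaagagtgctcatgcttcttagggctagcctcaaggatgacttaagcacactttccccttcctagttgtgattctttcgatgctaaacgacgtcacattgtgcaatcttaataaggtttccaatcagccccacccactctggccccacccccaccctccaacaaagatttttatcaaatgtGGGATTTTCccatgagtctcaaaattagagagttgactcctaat
The *Socs3* stretch is chr11:117969452-117969616 on the minus strand. It lies before the RefSeq start and inside an intron of a longer, non-coding *Socs3* transcript of GENCODE, whose first exon begins further upstream. The *Lif* stretch is chr11:4257318-4257556 on the plus strand and the *Il6* stretch chr5:30012864-30013113 on the plus strand.

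The windows were searched on both strands for 3 motifs. The STAT motif TTCNNNGAA occurred in 8.3% of the 32851 mouse promoter windows, the AP-1 motif TGANTCA in 7.81% and the NF-κB motif GGGANTTTC in 1.11%. In *Socs3* the match is a STAT motif, from 154 to 146 bases before the start. In *Lif* it is an AP-1 motif, from 228 to 222 bases before the start. *Il6* holds an AP-1 motif from 249 to 243 bases and an NF-κB motif from 44 to 36 bases before its start. All 10 members matched a promoter, in 13 windows, and the only other matches were an AP-1 motif in 1 window of *Il1rn* and in *Osmr*. These are matches of letters and no binding was measured.

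*Il1b* (chromosome 2, 129364570 to 129371139, minus strand) encodes IL-1β, the cytokine by which joint degeneration is often modelled in vitro. Its counts ran from 0 to 5 per Control library and from 0 to 26 per Knockout library, with sums of 21 and 98. In CPM the lowest, median and highest values were 0, 0.159 and 0.292 in Control and 0, 0.320 and 0.99 in Knockout. The groups overlapped: 11 of 12 Knockout libraries lay above the Control median and 6 above the highest Control library, while 3 Control libraries and 1 Knockout library had no count. For scale, 3 counts correspond to 0.111 CPM in the deepest library and 0.269 CPM in the shallowest, so most Control values were at or near that floor. Knockout replicates 8, 10 and 11 also had 3 counts or fewer, and replicate 6 alone had 26 of the 98 Knockout counts.

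*Il1b* did not enter the edgeR test. An exact two-sided permutation test of its log2 CPM gave a difference of 0.94 (p = 0.0277, not corrected). In edgeR without a filter, where 8.74% of genes were called, its estimate was 1.33 on the log2 scale (SE 0.67, adjusted p = 0.202), and the DESeq2 Wald test, which called 22.3% of genes, gave an adjusted p of 0.0957. *Il1b* was thus higher in most Knockout libraries, but the difference did not pass either test across all genes. From these same libraries, the study reports *Il1b* as higher in the knockout mice, with p-values from the DESeq2 Wald test. An antisense gene shares 25 exon bases with *Il1b* and had 10 counts in all libraries together.

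*Il1rn* (chromosome 2, 24336853 to 24351494, plus strand), the gene of the IL-1 receptor antagonist, was also low. It had 0 to 14 counts per Control library and 3 to 33 per Knockout library. The lowest, median and highest values were 0, 0.167 and 0.818 CPM in Control and 0.246, 0.643 and 1.58 CPM in Knockout. All 12 Knockout libraries lay above the Control median, although Control replicates 3, 5 and 6 reached values like those of the middle Knockout libraries. The edgeR estimate was 1.17 on the log2 scale with a 95% interval from -0.05 to 2.38 (SE 0.59, edgeR adjusted p = 0.150), so it was not called.

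**Figure D1:**
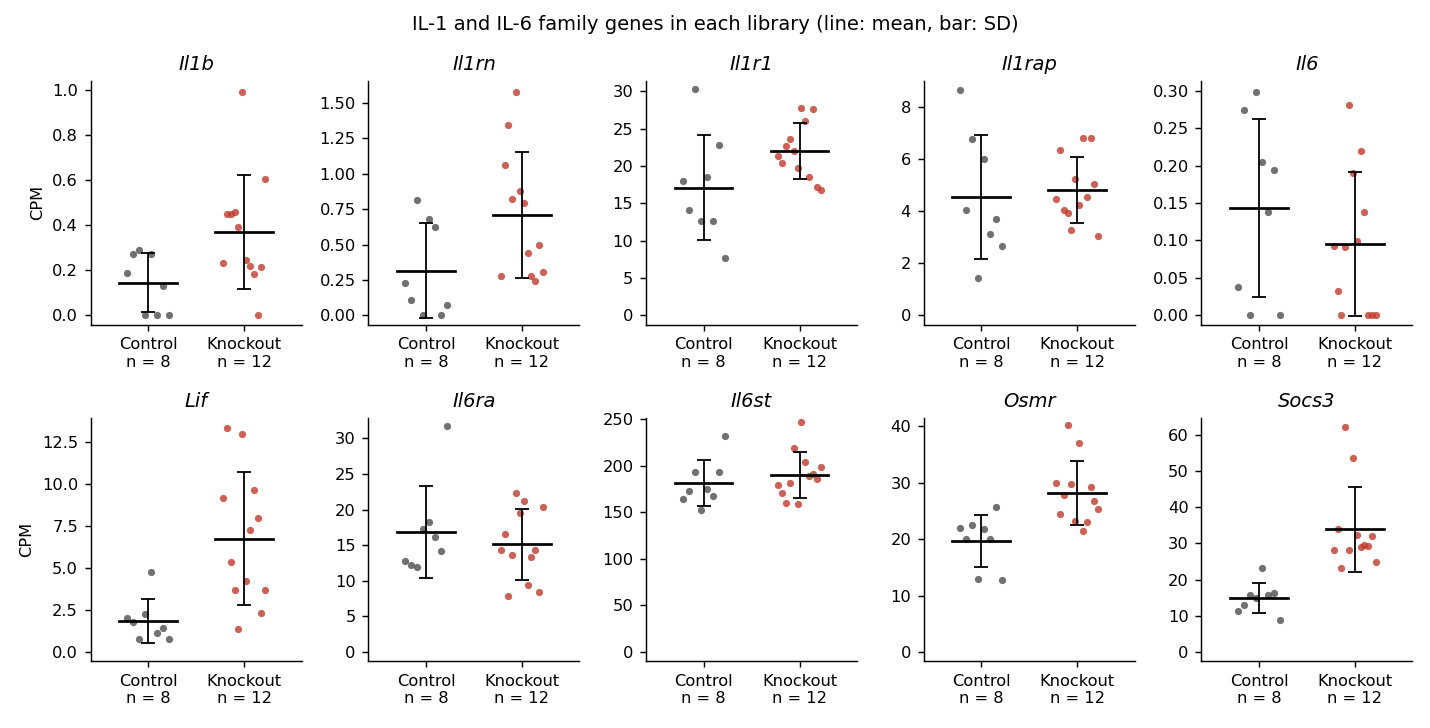
Expression of the 10 members in each library, in CPM on a linear axis with its own scale for each gene. Points are libraries (8 Control, 12 Knockout), horizontal lines are means and bars are SD; *Socs3* is the member whose groups do not overlap, with Control up to 23.1 CPM and Knockout from 23.2 CPM, whereas no *Il1b* value reaches 1 CPM and no *Il6* value reaches 0.3 CPM.

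The signalling chain of the IL-1 receptor, *Il1r1* (chromosome 1, 40225080 to 40317257, plus strand), was well expressed. It ran from 7.73 to 30.3 CPM in Control with a median of 16.1, and from 16.7 to 27.7 CPM in Knockout with a median of 21.7. Every Knockout library lay above the Control median and none above the highest Control library, replicate 3. The log2 fold change was 0.36 (95% interval -0.02 to 0.74, SE 0.18, edgeR adjusted p = 0.153). Without Control replicate 3 it was 0.53 and passed the test (edgeR adjusted p = 0.0298), so this call depends on 1 library.

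*Il1rap* (chromosome 16, 26581704 to 26730117, plus strand), the accessory chain without which the receptor does not signal, was 4.55 CPM ± 2.39 (SD, n = 8) in Control against 4.81 CPM ± 1.28 (SD, n = 12) in Knockout. Its log2 fold change was 0.07 (95% interval -0.46 to 0.61, SE 0.26, edgeR adjusted p = 0.865), with an interval that is wide on both sides of 0.

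Around these 4 genes, other IL-1 family ligands and antagonists were mostly too low to test. Of 9 listed, 3 were tested and 1 was called, *Il18*, a cytokine released by the inflammasome, at 0.986 CPM ± 0.524 (SD, n = 8) in Control against 2.05 CPM ± 0.609 (SD, n = 12) in Knockout (log2 fold change 1.05, SE 0.31, edgeR adjusted p = 0.0192). That call was lost with the libraries numbered 1 to 8 alone (edgeR adjusted p = 0.0617). *Il1a*, the other IL-1 receptor agonist, had 0 to 12 counts in Control and 0 to 15 in Knockout. The decoy receptor *Il1r2* had 2 to 17 counts in Control and 3 to 28 in Knockout. Of 8 further receptors of the family, 4 were tested and 2 rose, the IL-36 receptor *Il1rl2* (log2 fold change 0.88, SE 0.25, edgeR adjusted p = 0.0177) and the IL-33 receptor *Il1rl1* (1.52, SE 0.54, edgeR adjusted p = 0.0482). The *Il1rl1* call was lost in 15 of the 20 fits that left out 1 library.

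Downstream of the receptor, 14 of 15 listed signalling and processing genes were tested, of which 5 rose, 1 fell and 8 did not pass. The adaptor *Myd88* rose from 11 to 16.8 CPM (log2 fold change 0.61, SE 0.16, edgeR adjusted p = 0.0104) and the kinase *Irak4* from 4.35 to 7.12 CPM (0.71, SE 0.17, edgeR adjusted p = 0.00668). The pore-forming protein *Gsdmd*, through which mature IL-1β leaves the cell, and the caspase that processes it, *Casp1*, rose as well, *Gsdmd* from 12.4 to 18.6 CPM (log2 fold change 0.59, edgeR adjusted p = 0.00647) and *Casp1* from 1.69 to 3.01 CPM (0.83, edgeR adjusted p = 0.0208). *Tab3*, an adaptor of the kinase TAK1, was lower at -0.36 (edgeR adjusted p = 0.037), a call lost in 11 of 20 fits without 1 library. The median log2 fold change of the 14 was 0.06.

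Of 13 genes listed as induced by IL-1 in chondrocytes and fibroblasts, 9 were tested and 2 rose, both of them matrix-degrading enzymes. *Adamts4*, an aggrecanase, ran from 0.919 to 4.91 CPM in Control and from 2.33 to 16.8 CPM in Knockout (log2 fold change 2.06, SE 0.32, edgeR adjusted p = 0.00104). *Mmp13*, a collagenase also made by osteoblasts, ran from 37.5 to 265 CPM and from 179 to 2684 CPM (2.62, SE 0.53, edgeR adjusted p = 0.00254). The other 7 did not pass, and the chemokines *Cxcl1*, *Cxcl5* and *Ccl20* and the growth factor *Csf3* were too low to test. The study named *Adamts4*, *Adamts5* and *Mmp13* from these same libraries and also reports *Ptgs2* as upregulated in the knockout mice. These genes are therefore not independent evidence of the list's direction. *Adamts5* (log2 fold change 0.46) was not called in edgeR or DESeq2 (adjusted p = 0.127 and 0.113). *Ptgs2* (1.01) was not called in edgeR (adjusted p = 0.0681) but was called in DESeq2 (adjusted p = 0.0392).

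*Il6* (chromosome 5, 30013114 to 30019981, plus strand), the founding ligand of the second family, had 0 to 5 counts per library in both groups. In 16 of the 20 libraries it had 3 counts or fewer, and 2 Control and 4 Knockout libraries had none. Its mean was 0.143 CPM ± 0.119 (SD, n = 8) in Control against 0.0953 CPM ± 0.0959 (SD, n = 12) in Knockout. The groups overlapped throughout, and a difference was not detectable at this depth (exact permutation p = 0.402, two-sided; edgeR without a filter, log2 fold change -0.53, SE 0.78, adjusted p = 0.683). DESeq2 gave no adjusted p.

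*Lif* (chromosome 11, 4257557 to 4272514, plus strand) encodes leukaemia inhibitory factor, which signals through gp130 and the LIF receptor. It had 10 to 70 counts per Control library and 24 to 414 per Knockout library. The lowest, median and highest values were 0.76, 1.62 and 4.77 CPM in Control and 1.35, 6.29 and 13.3 CPM in Knockout. Knockout replicates 2 and 6 were highest at 13.3 and 13.0 CPM and replicate 5 lowest, and 11 of 12 Knockout libraries lay above the Control median. The groups overlapped, mainly through Control replicate 5, which at 4.77 CPM was above 5 Knockout libraries. The log2 fold change was 1.85 (95% interval 0.98 to 2.73, SE 0.42, edgeR adjusted p = 0.00488).

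Within the Knockout group the *Lif* level ran in nearly the same order as the osteoclast markers. The osteoclast list (*Acp5*, *Ctsk*, *Mmp9*, *Calcr*, *Oscar*, *Dcstamp*, *Ocstamp*, *Atp6v0d2*, *Itgb3* and *Car2*) summed to between 140 and 1409 CPM in Control and between 606 and 7963 CPM in Knockout, and 9 of its 10 genes were called higher. Over the 12 Knockout libraries, Pearson's r between *Lif* and the mean log2 CPM of that list was 0.98 and Spearman's rho 0.99 (permutation p = 1e-05 for both, the smallest that 100000 resamples can give, adjusted p = 0.00012 over 12 relations). It was still 0.98 without the 2 libraries farthest from the median. Over the 8 Control libraries r was 0.59 and rho 0.24 (exact permutation p = 0.124 and 0.582). These 12 relations, of *Lif*, *Osmr* and *Socs3* with the osteoclast and macrophage lists in each group, were chosen after the values had been seen, and the other 11 had adjusted p between 0.0714 and 0.65 for r. The part of the osteoclast markers in the difference between groups was not tested.

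**Figure D2:**
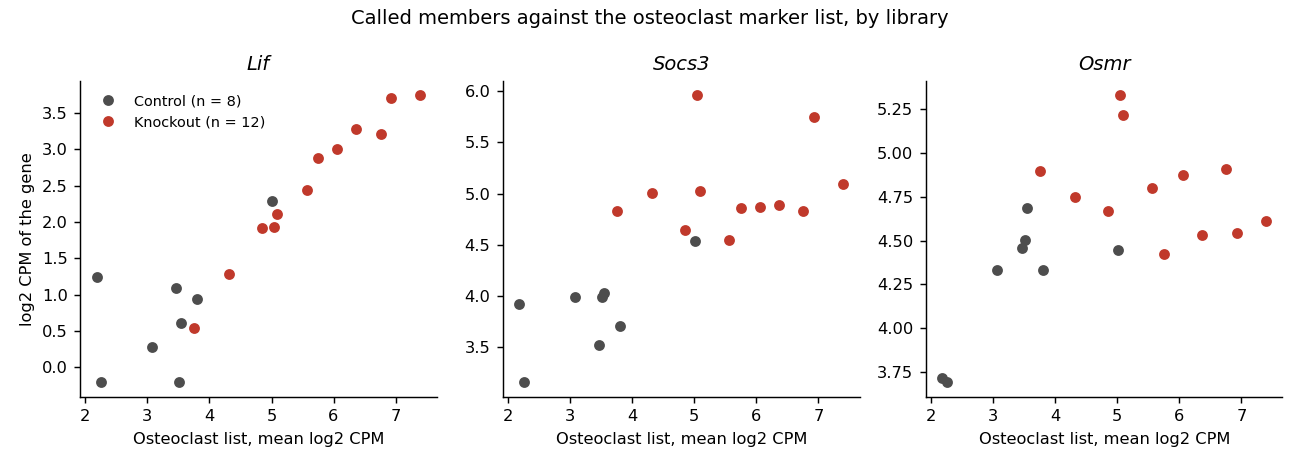
Log2 CPM of *Lif*, *Socs3* and *Osmr* (vertical axes) against the mean log2 CPM of the 10 osteoclast markers (horizontal axes), with 1 point per library, grey for Control and red for Knockout. The Knockout points of *Lif* lie close to a rising line (r = 0.98, n = 12), while those of *Socs3* (r = 0.16) and *Osmr* (r = -0.40) do not.

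The genes whose pattern over the 20 libraries was most like that of *Lif*, after the group means had been subtracted, were *2010300C02Rik* (r = 0.93), *Ocstamp* (r = 0.93) and *Galnt6* (r = 0.92), out of 13360 protein-coding genes compared. *Ocstamp* encodes a transmembrane protein of osteoclasts needed for their fusion and is also 1 of the osteoclast markers above. The osteoblast and osteocyte list was likewise higher in Knockout, with sums of 1299.9 to 12288 CPM in Control and 4013 to 38795 CPM in Knockout. By the same measure its r with *Lif* was 0.78, against 0.86 for the osteoclast list. Within groups, its r was 0.82 in Knockout and 0.73 in Control, against 0.98 and 0.59 for the osteoclast list. The relations of *Lif* with the osteoblast list were not tested.

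Among the other IL-6 family ligands, 5 of 9 listed were tested in edgeR, where none was called higher and 1 was called lower. *Ctf1*, the gene of cardiotrophin-1, was 8.82 CPM ± 2.66 (SD, n = 8) in Control against 5.14 CPM ± 2.17 (SD, n = 12) in Knockout (log2 fold change -0.77, SE 0.23, edgeR adjusted p = 0.0194), and it did not pass without Control replicate 8 (-0.63, adjusted p = 0.0626). *Clcf1* was not called in edgeR (log2 fold change 0.65, SE 0.24, adjusted p = 0.0545) but was called higher in DESeq2 (adjusted p = 0.0344). In 11 of 12 Knockout libraries *Clcf1* lay above its Control median. *Il11*, which acts on bone and cartilage through its own receptor, was not called (log2 fold change 0.98, SE 0.60, edgeR adjusted p = 0.239). *Osm*, the gene of oncostatin M and the ligand for the product of *Osmr*, was near zero, with 0 to 7 counts in Control and 2 to 22 in Knockout, and did not enter the test. All 12 Knockout libraries nevertheless lay above the Control median of *Osm* (exact permutation p = 0.00107, two-sided). Its adjusted p was 0.0501 in edgeR without a filter, over 34192 genes, and 0.00892 in DESeq2, over 18931 genes.

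The receptor chains of the IL-6 family divided into *Il6st* and *Il6ra*, which were not called, and *Osmr*. *Il6st* (chromosome 13, 112464070 to 112510086, plus strand), which encodes the shared chain gp130, was the highest of the members. Its lowest, median and highest values were 153, 174 and 232 CPM in Control and 159, 187 and 247 CPM in Knockout. The ranges nearly coincided, and the log2 fold change of 0.07 had a 95% interval from -0.12 to 0.26 (SE 0.09, edgeR adjusted p = 0.606). This is the narrowest interval of the 8 members tested.

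*Il6ra* (chromosome 3, 89864059 to 89913196, minus strand), the IL-6-binding chain, ran from 11.9 to 31.7 CPM in Control with a median of 15.2, and from 7.87 to 22.3 CPM in Knockout with a median of 14.3. Control replicate 8 was the highest library of all. Its log2 fold change was -0.15 (95% interval -0.59 to 0.29, SE 0.21, edgeR adjusted p = 0.641), and its sign turned when that library was left out (0.05). An antisense gene shares 242 exon bases with *Il6ra* and had 63 counts in all.

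*Osmr* (chromosome 15, 6813577 to 6874969, minus strand) encodes the chain that pairs with gp130 to bind oncostatin M. The lowest, median and highest values were 12.8, 20.9 and 25.6 CPM in Control and 21.4, 27.3 and 40.1 CPM in Knockout. Control replicates 4 and 8 were lowest at 13.0 and 12.8 CPM, and Knockout replicates 4 and 7 highest at 40.1 and 37.1 CPM. The groups overlapped between 21.4 and 25.6 CPM, all 12 Knockout libraries lay above the Control median and 7 above the highest Control library. The log2 fold change was 0.51 (95% interval 0.23 to 0.80, SE 0.14, edgeR adjusted p = 0.0125).

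The balance of *Osmr* to *Il6st* changed as well. The log2 ratio of counts averaged -3.23 ± 0.43 (SD, n = 8) in Control against -2.77 ± 0.27 (SD, n = 12) in Knockout, which is 1.37 times as much *Osmr* per *Il6st* (exact permutation p = 0.00304, two-sided, 0.0182 after Benjamini-Hochberg adjustment over 6 ratios). It was higher than the Control median in 11 of 12 Knockout libraries. The difference was 0.32 and did not pass without Control replicate 8 (adjusted p = 0.0773). None of the other 5 ratios passed, those of *Il1rn* to *Il1r1*, *Il1rap* to *Il1r1*, *Il6ra* to *Il6st*, *Osmr* to *Lifr* and *Il1r2* to *Il1r1* (adjusted p = 0.150 to 0.883), although that of *Il1rn* to *Il1r1* did so without Control replicate 6 (adjusted p = 0.045).

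Of 5 further receptors of the IL-6 family, 4 were tested and 1 rose, the LIF receptor *Lifr*. It ran from 69.4 to 149 CPM in Control and from 61.3 to 227 CPM in Knockout (log2 fold change 0.64, SE 0.23, edgeR adjusted p = 0.0486), and the call was lost in 12 of 20 fits without 1 library. *Il11ra1*, the receptor for interleukin-11, was 80.9 CPM ± 12.9 (SD, n = 8) and 72 CPM ± 12.6 (SD, n = 12) and was not called (log2 fold change -0.17, SE 0.11, edgeR adjusted p = 0.280).

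Levels of different genes were compared as CPM per kilobase of exon. Among the members in Control, *Il6st* was highest at 16.3 CPM per kilobase, followed by *Socs3* at 5.15, *Il1r1* at 2.68, *Il6ra* at 1.95 and *Osmr* at 1.63. *Lif* and *Il1rap* were at 0.429 and 0.4 CPM per kilobase, and the lowest members were *Il1b*, *Il6* and *Il1rn* at 0.0758, 0.059 and 0.0572. *Il1r1*, *Il6ra* and *Osmr* differed from one another by less than the larger of the SDs compared, as did *Lif* from *Il1rap* and the lowest 3 members from each other. Beside the members, the receptors *Il11ra1* and *Lifr* were at 18.1 and 8.38 CPM per kilobase in Control. *Il1b* and *Il6* thus lay well below the receptor chains of their own families, and *Lif* lay below *Osmr*, *Il6ra*, *Il6st* and *Lifr*. In Knockout, *Lif* at 1.55 CPM per kilobase came close to *Il6ra* at 1.75, and *Socs3* reached 11.7. The ligand *Osm* was at 0.0485 CPM per kilobase in Control and 0.198 in Knockout, against 1.63 and 2.33 for its receptor chain *Osmr*.

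**Figure D3:**
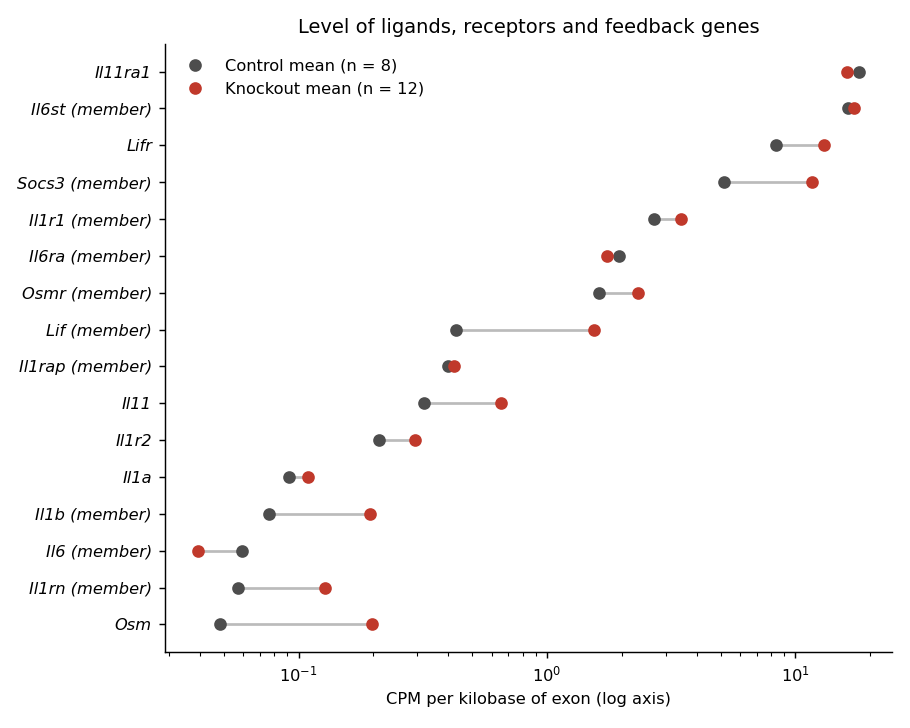
Mean level of the 10 members and of 6 ligands and receptors that act with them, in CPM per kilobase of exon on a log axis, with Control means (n = 8) in grey and Knockout means (n = 12) in red joined by a line for each gene. Receptor chains such as *Il6st* (16.3 and 17.2) lie far to the right of the ligands *Il6* (0.059 and 0.0393) and *Il1b* (0.0758 and 0.194).

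*Socs3* (chromosome 11, 117966079 to 117970047, minus strand), whose promoter stretch above holds the STAT motif, encodes the inhibitor that binds gp130 and ends its signalling. The lowest, median and highest values were 8.80, 15.4 and 23.1 CPM in Control and 23.2, 29.3 and 62.1 CPM in Knockout. Knockout replicates 4 and 6 stood highest at 62.1 and 53.6 CPM. The groups did not overlap, with Control replicate 5 (23.1 CPM) just under Knockout replicate 3 (23.2 CPM). Of all 15984 genes tested, 0.3% had groups that did not overlap and 0.213% did so with Knockout higher. The log2 fold change was 1.19 (95% interval 0.79 to 1.59, SE 0.19, edgeR adjusted p = 0.00115), and the exact permutation p was 7.94e-06 (two-sided), the smallest that the 125970 assignments can give. When libraries were scaled by their totals alone, the groups overlapped narrowly, with Control up to 23.9 CPM and Knockout from 22.3 CPM.

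The genes most like *Socs3* across libraries were *Il10ra*, a receptor chain of leukocytes (r = 0.83), *Edem2* (r = 0.80) and *Vsir*, an immune checkpoint gene of myeloid cells (r = 0.80). The macrophage and monocyte list summed to between 95.2 and 377 CPM in Control and between 256 and 1026 CPM in Knockout, with 8 of 10 genes called higher. Its mean log2 CPM had r = 0.63 with *Socs3* and 0.66 with *Osmr* over the 20 libraries after subtraction of group means, against 0.28 with *Lif*. Within groups, r of *Socs3* with that list was 0.86 in Control and 0.47 in Knockout, but 0.26 in Control without the 2 farthest libraries, and neither passed the adjustment (exact permutation p = 0.0119, adjusted p = 0.0714 in Control; permutation p = 0.119, adjusted p = 0.185 in Knockout). For *Osmr*, r was 0.76 in Control (exact permutation p = 0.0277, adjusted p = 0.0872) and 0.56 in Knockout (permutation p = 0.0555, adjusted p = 0.123). The part of macrophages in the differences of *Socs3* and *Osmr* was not tested. Among the other lists, fibroblast and synovial lining genes had r = 0.79 with *Osmr*, above the 0.66 of the macrophage list. Within groups that r was 0.70 in Control and 0.91 in Knockout, and these relations were not tested. The difference of the fibroblast list between groups did not pass the test (log2 difference 0.51, exact permutation p = 0.0927, adjusted p = 0.174 over 15 lists).

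Of 10 further feedback genes, all were tested, 5 rose, 1 fell and 4 did not pass, with a median log2 fold change of 0.33. *Socs1* rose from 3.88 to 8.65 CPM (log2 fold change 1.15, SE 0.28, edgeR adjusted p = 0.00648) and *Socs2* from 24 to 45.4 CPM (0.92, SE 0.19, edgeR adjusted p = 0.00257). The phosphatase *Ptpn1*, which dephosphorylates JAK kinases, rose from 35.3 to 58.5 CPM (0.73, SE 0.12, edgeR adjusted p = 0.00111), and *Nfkbia*, the inhibitor of NF-κB that NF-κB itself induces, from 31.5 to 41.4 CPM (0.40, SE 0.12, edgeR adjusted p = 0.023). *Socs7* was lower (-0.31, edgeR adjusted p = 0.0247), a call lost with scaling by library totals alone (adjusted p = 0.215), without a filter (0.0614) and without Control replicate 8 (0.088). The called genes thus include SOCS genes known chiefly from interferon signalling, *Socs1*, and from growth hormone signalling, *Socs2*.

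Of 9 JAK-STAT and receptor shedding genes, all were tested and *Stat3* alone was called. It was 97.4 CPM ± 6.3 (SD, n = 8) in Control, from 91.5 to 109, and 128 CPM ± 14 (SD, n = 12) in Knockout, from 116 to 167. The groups of *Stat3* did not overlap either (log2 fold change 0.40, SE 0.07, edgeR adjusted p = 0.00145). *Stat3* encodes the transcription factor that gp130 activates and is among its own targets.

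Among 14 genes listed as induced by IL-6 family cytokines and STAT3, 13 were tested, 7 rose, none fell and 6 did not pass. Their log2 fold changes ran from -0.21 to 2.14, with a median of 0.80. Of all genes tested, 12% were called higher and 11% lower. *Timp1*, an inhibitor of matrix metalloproteinases, ran from 7.12 to 53.5 CPM in Control and from 33.6 to 122 CPM in Knockout (log2 fold change 1.52, SE 0.26, edgeR adjusted p = 0.00128). The genes of the transcriptional regulators *Myc*, *Bcl3* and *Junb* rose too, at 1.01, 1.09 and 0.80 in log2 units (adjusted p = 0.00217, 0.00415 and 0.0086 in edgeR). These genes also respond to other signals, and the list gives no measure of STAT3 activity.

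Over all 9 lists, 71 of 92 genes were tested, 24 were higher (33.8% of those tested, against 12% of all genes), 3 were lower (4.23%, against 11%) and 44 did not pass, and the median log2 fold change was 0.43. The lists were chosen with earlier results of these data known, so an excess of called genes may come from that choice. Genes that passed the filter only through the group in which they were high had to differ. For both reasons these shares are given as description and are not evidence about the pathways.

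**Figure D4:**
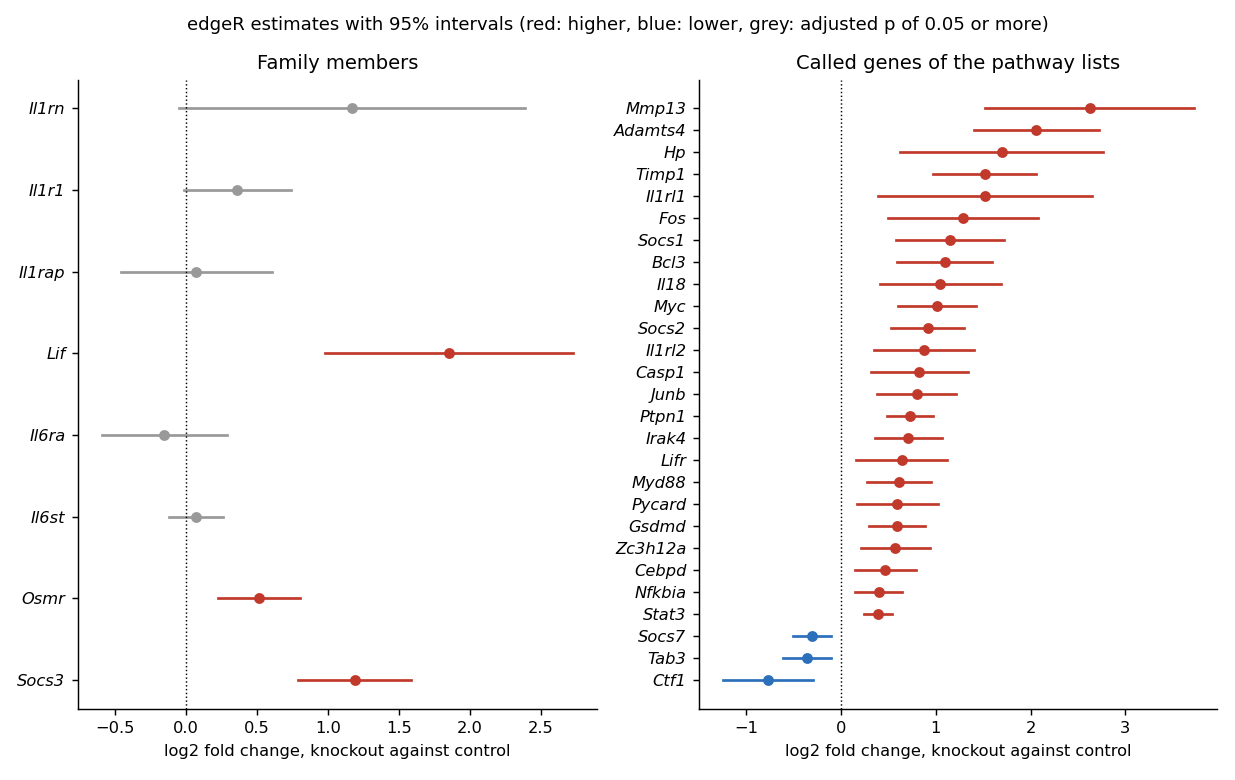
Log2 fold changes (Knockout against Control, edgeR) with 95% intervals for the 8 tested members on the left and the 27 called genes of the pathway lists on the right. Red marks genes that were higher, blue lower and grey not called, and *Lif* (1.85), *Socs3* (1.19) and *Osmr* (0.51) are the members in red.

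The members did not form 1 block of co-varying genes. Between pairs of the 7 members with a mean of at least 1 CPM, r over the 20 libraries after subtraction of group means ran from -0.54, between *Il6st* and *Lif*, to 0.66, between *Il1r1* and *Osmr*. *Il1r1* and *Il1rap* had r = 0.56, and *Lif* and *Socs3* r = 0.30. The gene most like *Il1r1* was *Adamts5*, an aggrecanase (r = 0.88), that most like *Il1rap* was *Gulp1* (r = 0.91), that most like *Il6ra* was *Blnk* (r = 0.80), that most like *Il6st* was *Dusp3* (r = 0.82) and that most like *Osmr* was *Pf4* (r = 0.86). All libraries share the tissue mixture, so these values describe the libraries.

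Ligand and partner pairs were also correlated within groups. The pairs were *Il1b* with *Il1rn*, *Il6st* with *Osmr*, *Lif* with *Socs3* and *Il6* with *Socs3*, 8 relations in all. The highest r was 0.59 for *Lif* and *Socs3* in Control (exact permutation p = 0.124) and 0.56 for *Il1b* and *Il1rn* in Knockout (rho 0.61, permutation p = 0.0507 and 0.0401). None passed the adjustment (adjusted p = 0.406 to 0.792 for r and 0.32 to 0.703 for rho). *Lif* and *Socs3*, the members with the greatest called differences, had r = 0.15 and rho 0.33 in Knockout (permutation p = 0.637 and 0.299).

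Library totals ran from 11153820 to 27045668 counts. Mitochondrial transcripts took 15.2% to 23.1% of the counts in Control and 9.06% to 18.3% in Knockout, with 8 of 12 Knockout libraries below the lowest Control library, and the part of this difference in the results was not tested. Of the 15 marker lists, those of macrophages, osteoclasts, mast cells (6 of 8 tested genes higher) and osteoblasts and osteocytes (6 of 10 higher) were higher in Knockout (exact permutation adjusted p = 0.00161, 0.00161, 0.00877 and 0.0264), and 11 did not pass. Chondrocyte markers were present, at 51 to 3117 CPM in Control and 488 to 5096 CPM in Knockout for their sum, beside 43913 to 191996 CPM and 32675 to 87182 CPM of skeletal muscle markers. Of the 10 muscle markers 5 were called lower in Knockout, though the list did not pass (log2 difference -0.84, exact permutation p = 0.0372, adjusted p = 0.111). The part of muscle in the results was not tested. The only marker at 0 in all libraries was the salivary gene *Smgc*.

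**Figure D5:**
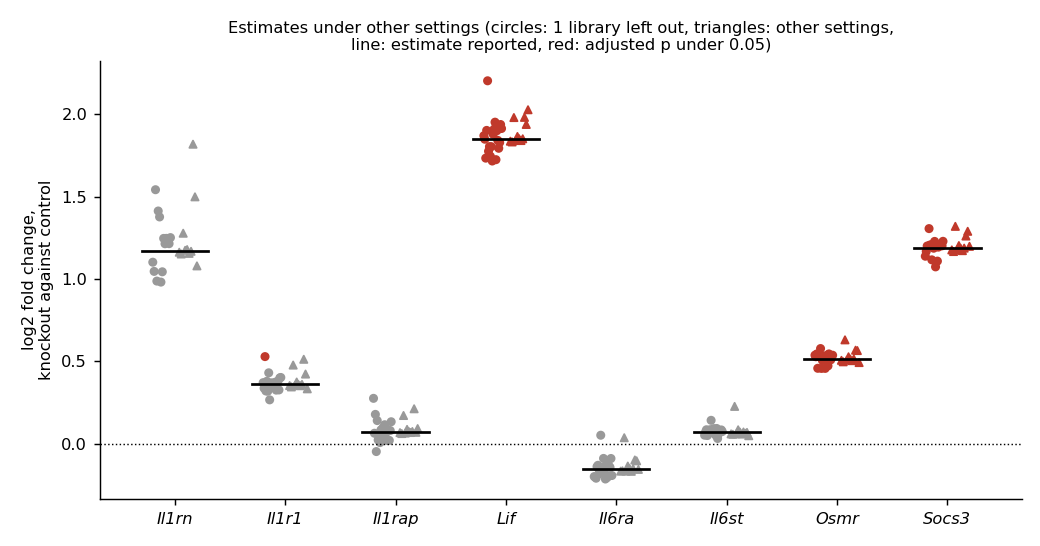
Log2 fold change of the 8 tested members under other settings, with circles for fits without 1 library, triangles for other settings, black lines for the reported estimates and red for an adjusted p under 0.05. *Lif* (1.72 to 2.20), *Osmr* (0.46 to 0.63) and *Socs3* (1.07 to 1.32) are red throughout, and *Il1r1* is red in 1 fit.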

How the data were processed

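TMJ condylar heads from 8 Control and 12 Knockout animals were sequenced as paired ends. Per the study's methods, the authors had reads trimmed by their sequencing provider, aligned them to mm10 and assigned them to genes with featureCounts. The deposited values are raw counts per Ensembl gene. The aligner, the annotation and the use of strand are not given in the sources used here, so antisense overlaps cannot be separated. Of 54532 genes, 54495 were matched by identifier to GENCODE M21 (GRCm38) for symbols, exon lengths and coordinates (1-based).

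The sample titles gave group and replicate number; the study states 8 and 12 animals, and no label ties a library to an animal, so p-values measure the spread between these libraries. Counts were tested with edgeR 4.0.16 in R 4.3.3 (filterByExpr, TMM, quasi-likelihood test, two-sided, Benjamini-Hochberg adjustment, threshold 0.05), and the SE was derived from the F statistic. CPM use TMM-scaled library sizes and log2 CPM a prior count of 2. Ratios had 0.5 added to each count. Single values were tested by exact permutation over 125970 assignments, and correlations over all 40320 pairings (Control) or 100000 resamples (Knockout). The DESeq2 1.42.0 Wald test, which the study used, was an alternative, with other scalings, filters, a robust fit, protein-coding genes alone, a covariate of 5 Y chromosome genes, the replicate number as a block and omission of each library. The fit was tested on simulated counts. Libraries were not duplicated (smallest chi-square 32.9 per degree of freedom among 190 pairs). Limits of 3 counts cover counting error only.

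The members, pathway lists and marker lists were chosen with earlier results of these data known. Named genes are every member, the called genes of each list (at most 4 per direction) and 6 partners of the members. Also named are the 3 most alike genes, of which the text prints at least 1, and *Loxl2*. *Clcf1*, *Adamts5* and *Ptgs2* were added because the study reported them as higher or DESeq2 called them. The relations with marker lists and the smaller prior count of 0.5 were added after the values had been seen.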

Additional observations from a re-analysis of the deposited data

Results flagged for a closer look

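In each of 11 genes, the 10 members and *Loxl2*, the 8 Control libraries were examined for 1 library far from the others by Dixon's criterion, which chance meets in about 1 of 20 groups, and 2 were found. *Il6ra* was 31.7 CPM in Control replicate 8, where the next highest Control library had 18.3 CPM (ratio of gap to range 0.676). *Lif* was 4.77 CPM in Control replicate 5, where the next highest had 2.27 CPM (ratio 0.624). The Knockout group has more than 10 libraries and was not examined in this way.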

How the results depend on the processing

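*Lif*, *Osmr* and *Socs3* kept their direction and their call in all 31 other fits, with edgeR or DESeq2 adjusted p between 6.57e-05 and 0.0456, 0.00486 and 0.0401, and 2.64e-07 and 0.0144. The number of members called was 3 in the 11 other settings and 3 to 4 when 1 library was left out. Scaling by library totals alone moved the median log2 fold change of all genes to 0.12 and the share of calls that were higher from 52.2% to 72%, and turned *Il6ra* to 0.037. *Il6ra* also turned without Control replicate 8 and *Il1rap* without Control replicate 4, neither of them called; without 1 library they ran from -0.21 to 0.052 and from -0.047 to 0.28. Same-numbered libraries had correlations from -0.36 to 0.17 and none of 8 matched its own number best, so the numbers do not pair the samples. With the replicate block, 1786 genes and 17 list genes were called against 3673 and 27; *Il18*, *Il1rl2* and *Nfkbia* (adjusted p = 0.0929, 0.0571 and 0.0898) and *Socs7* were among those not called, while *Lif*, *Osmr* and *Socs3* were called. Without 1 library, the log2 ratio differences ran from 0.32 to 0.50 for *Osmr* to *Il6st*, from 0.84 to 1.58 for *Il1rn* to *Il1r1*, from -0.19 to 0.049 for *Osmr* to *Lifr* and from -0.48 to 0.049 for *Il1r2* to *Il1r1*. Without the 2 farthest libraries, r of *Il6st* and *Osmr* turned to 0.74 in Control and -0.15 in Knockout. *Il1rn* was too low to be tested at a mean of at least 1 CPM and without any 1 of Knockout replicates 2 to 7. The causes of these changes were not tested. Depth limits *Il1b*, *Il6*, *Osm* and *Il1rn* most.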
